A study of Mus musculus with 6 samples.

Results

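The genes described here are 10 heat shock proteins and chaperones, chosen by name: Hspa1a, Hspa1b, Hsph1, Dnajb1, Dnaja1, Hspa8, Hsp90aa1, Hsp90ab1, Hspd1 and Hspe1. A member was measured where at least 1 probe set was annotated to it and to no other gene, and where several were, the brightest over the 6 arrays was used. This gave 8 of the 10 members, out of 22180 genes measured in all. The only probe set annotated to Dnaja1 also named the microRNA gene Mir207, and for Hsp90ab1 the annotation used here listed 0 probe sets, so these 2 members have no value.

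The RNA came from CD4+ CD8+ double-positive thymocytes, a stage of T-cell development in the thymus at which both coreceptors are on the surface. The 2 groups were C57BL/6 wild-type mice (3 arrays) and Ets1-/- mice (3 arrays), which lack the lymphocyte transcription factor Ets1, all aged 5 to 6 weeks, with litter mates as replicates. The labels name no Cre or promoter for the deletion and do not say whether an array held 1 animal or several, so p-values measure the spread between these samples. In both genotypes the thymocytes were fixed in formaldehyde before they were taken with magnetic beads, first for CD8 and then for CD4, and RNA was isolated with TRIzol.

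Heat shock proteins fold new or damaged proteins. HSP70 proteins hold unfolded chains with ATP, J-domain partners of the HSP40 family start that cycle, and HSP110 proteins such as Hsph1 end it by exchanging the nucleotide. HSP90 finishes kinases and steroid receptors, several of them signalling proteins of T cells, and HSP60 (Hspd1) with its lid HSP10 (Hspe1) folds proteins inside mitochondria. Hspa1a, Hspa1b, Hsph1, Dnajb1 and Hsp90aa1 are grouped here as inducible members, because heat shock factor 1 raises them in stressed cells. Hspa8, Hspd1 and Hspe1 are grouped as constitutive members, with Dnaja1 and Hsp90ab1 on paper only. The borders are not sharp, since Hspd1 and Hspe1 also respond to heat.

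The promoters of Hspa1a, Hspa1b, Hsph1 and Hspe1, the 4 members with the largest log2 fold changes, are shown with their matches to the repeats that heat shock factors bind. Hspd1 and Dnaja1 hold such matches too. Such a repeat is built of units GAA (TTC on the other strand) that face each other with 2 bases between them. Capitals mark each pair of units, GAANNTTC or TTCNNGAA, and each run of 3 units, GAANNTTCNNGAA or TTCNNGAANNTTC. The pairs read the same on both strands, the 2 forms of the run are each other's complement, and every run holds 2 overlapping pairs. The windows run from 250 bases before the annotated start to 50 after and come from RefSeq on GRCm38.p6, each written along the gene's own strand. They are chr17:34972107-34972406 (minus strand) for Hspa1a, chr17:34959189-34959488 (minus strand) for Hspa1b, chr5:149636266-149636565 (minus strand, the second listed start) for Hsph1 and chr1:55087898-55088197 (plus strand) for Hspe1.
Hspa1a: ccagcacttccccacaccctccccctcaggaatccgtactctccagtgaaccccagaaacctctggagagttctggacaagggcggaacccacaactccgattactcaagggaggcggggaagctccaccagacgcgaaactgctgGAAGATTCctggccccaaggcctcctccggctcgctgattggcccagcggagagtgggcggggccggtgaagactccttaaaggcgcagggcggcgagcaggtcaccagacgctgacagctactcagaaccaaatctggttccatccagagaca
Hspa1b: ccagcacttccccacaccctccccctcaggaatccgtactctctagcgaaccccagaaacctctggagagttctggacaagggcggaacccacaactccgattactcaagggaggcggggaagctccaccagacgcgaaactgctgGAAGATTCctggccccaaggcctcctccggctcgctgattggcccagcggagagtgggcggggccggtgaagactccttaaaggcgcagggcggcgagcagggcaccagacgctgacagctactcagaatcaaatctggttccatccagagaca
Hsph1: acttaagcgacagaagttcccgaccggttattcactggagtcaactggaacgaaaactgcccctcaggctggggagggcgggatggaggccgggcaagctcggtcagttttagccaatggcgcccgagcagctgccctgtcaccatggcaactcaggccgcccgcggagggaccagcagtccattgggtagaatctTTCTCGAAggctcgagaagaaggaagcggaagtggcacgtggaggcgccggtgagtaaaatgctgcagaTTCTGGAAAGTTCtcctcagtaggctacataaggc
Hspe1: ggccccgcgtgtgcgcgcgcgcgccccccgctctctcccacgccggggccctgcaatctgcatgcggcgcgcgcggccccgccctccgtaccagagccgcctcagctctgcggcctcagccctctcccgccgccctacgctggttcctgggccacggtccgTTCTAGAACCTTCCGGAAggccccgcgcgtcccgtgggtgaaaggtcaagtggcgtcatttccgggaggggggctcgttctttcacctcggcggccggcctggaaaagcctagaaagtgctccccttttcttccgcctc

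Hspa1a and Hspa1b are neighbours on chromosome 17, with 0 other genes starting between them, and their windows were identical at 296 of 300 bases (98.7%). The 4 differences, counted from the 5′ end of the window with the base of Hspa1a first, were C44T, T47C, T249G and C276T. None of them touched the single pair of units, which lay at -104 to -97 from the start in both genes. The Hsph1 window held 3 pairs, among them a run of 3 units just after the start. Hspd1 and Hspe1 are head-to-head neighbours on chromosome 1. The Hspe1 window shared 285 bases with the second Hspd1 window, and both held the same block of 3 overlapping pairs and 2 runs.

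Among all 32851 promoter windows in the RefSeq table, 15.1% held at least 1 pair and 0.603% held a run of 3. Counted by gene, 17.0% of all genes had a pair and 0.662% a run of 3 in at least 1 window. Of the 7 members with an analysed window, 6 had a pair (Dnaja1 as well) and 3 a run of 3, and the 2 windows of Dnajb1 held none. These members are not independent sequences, since Hspd1 and Hspe1 share their block and the Hspa1a and Hspa1b windows are nearly identical. A match describes letters in a window and is not evidence that a factor binds there. Hspa8, Hsp90aa1 and Hsp90ab1 were not analysed here for promoter sequence. Any window of a member on chr18 was left out, whereas the shares of all windows and genes include that chromosome.

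**Figure D1:**
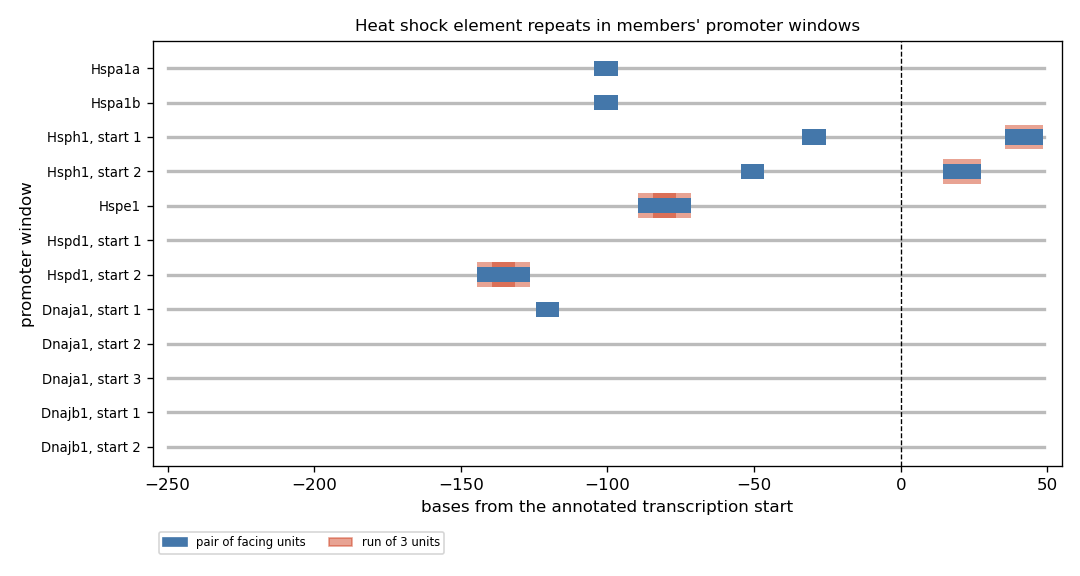
Position of heat shock element repeats in the 12 analysed promoter windows of 7 members, with the distance from the annotated transcription start in bases on the x axis and 1 window per row. Blue boxes are pairs of facing units and red boxes runs of 3 units; Hspa1a and Hspa1b carry 1 pair at the same place, Hsph1, Hspe1 and the second start of Hspd1 carry runs, and Dnajb1 carries neither.

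The deposited values are log2 signals, and the median of all probe sets lay between 3.66 and 4.33 on the 6 arrays, lowest on Ets1-/- replicate 1. All 9 measured markers of the double-positive stage lay above the array median on every array. For Cd4 the wild-type mean was 10.94 ± 0.06 and the Ets1-/- mean 11.08 ± 0.07, and for Cd8a they were 11.00 ± 0.03 and 10.91 ± 0.05 (each SD over 3 arrays). The single probe set of Ets1 read 9.11, 9.32 and 9.17 in wild type and 9.27, 9.22 and 8.79 in Ets1-/-, so it does not check the labels. Which part of the gene the probes cover, and whether it is deleted, was not analysed here. In RNA of bulk cells, a change in the number of cells of a type and a change in RNA per cell cannot be told apart.

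Of the 8 measured members, the inducible HSP70 gene Hspa1a was called higher in Ets1-/- and none was called lower (limma on all genes, Benjamini-Hochberg adjusted p under 0.05). Among all 22180 genes 1.86% were called and 1.29% were called higher. For 6 of the 8 members every Ets1-/- array lay above every wild-type array, against 5.76% of all genes. The sizes differed widely, from a log2 fold change of 4.06 for Hspa1a to 0.13 for Hspa8, and Dnajb1 and Hsp90aa1 overlapped between the groups. The median log2 fold change was 0.47 over the 8 members and -0.22 over all genes. The median over all genes depended on single arrays: it was -0.02 without Ets1-/- replicate 1 and -0.33 without Ets1-/- replicate 2. Besides Hspa1a, 3 members (Hspa1b, Hsph1 and Hspe1) had an unadjusted limma p under 0.05 without passing the adjusted test, and 4.54% of all genes were higher at that unadjusted level.

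**Figure D2:**
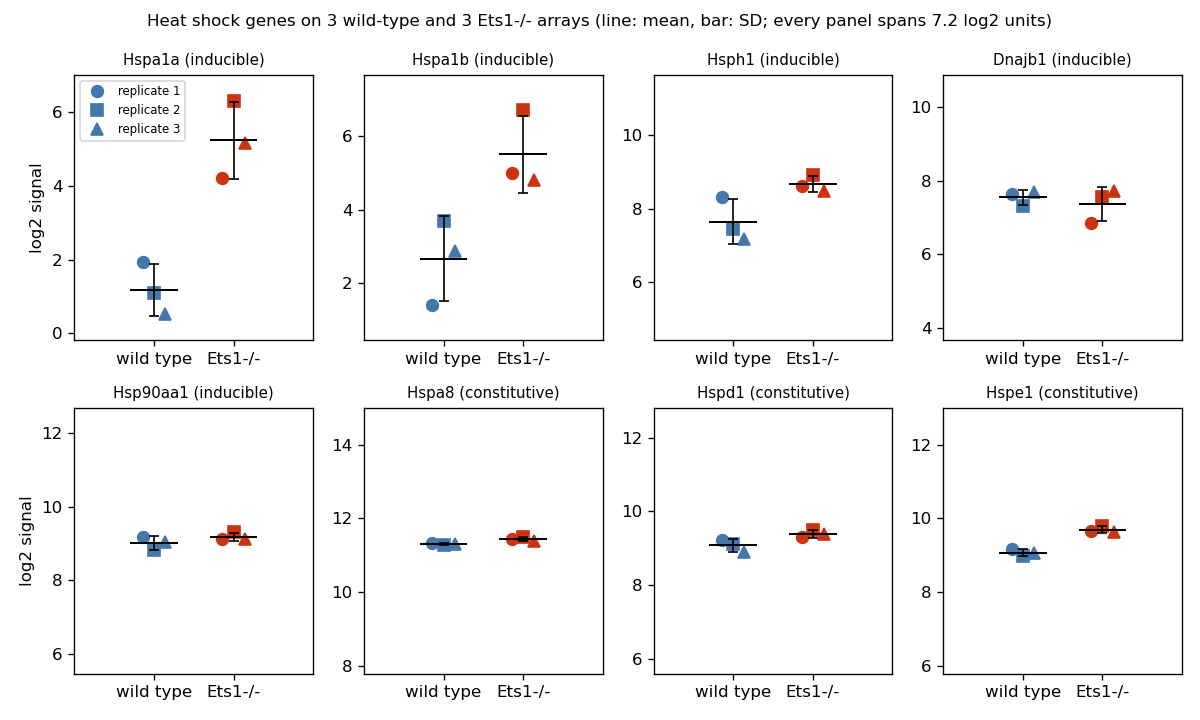
Log2 signal of the 8 measured members on each array, with wild type in blue and Ets1-/- in red, marker shapes for replicate numbers, a line for the mean and a bar for the SD (n = 3). Each panel spans the same 7.2 log2 units, so the wide gap of Hspa1a (1.18 against 5.24 on average) can be set against the near-level points of Hspa8, Hsp90aa1 and Dnajb1.

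Hspa1a encodes the stress-induced cytosolic HSP70. Its log2 signal was 1.93, 1.10 and 0.52 in wild type and 4.22, 6.32 and 5.18 in Ets1-/-. The groups were 2.29 apart at their nearest arrays, and the wild-type values were all below the median of their array whereas the Ets1-/- values were all above it. This is a log2 fold change of 4.06 with an SE of 0.56 (95% interval 2.75 to 5.36; limma adjusted p = 0.0124). No linear fold is given, because the wild-type values are far below the array medians and were not shown to be above background. The exact permutation test gave p = 0.1, the smallest that 3 arrays against 3 allow. Adding a pseudocount of 16 on the linear scale, which damps differences between dim signals, brought the log2 fold change to 1.60 (limma adjusted p = 0.0316). The call held with the pseudocount but was lost when all 41345 probe sets were tested together (limma adjusted p = 0.0554). Hspa1a drops out when genes below the median signal are left out.

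Hspa1b, the second inducible HSP70 gene, encodes a nearly identical protein. It read 1.42, 3.70 and 2.89 in wild type and 5.00, 6.71 and 4.81 in Ets1-/-. All 3 Ets1-/- arrays were above all wild-type arrays, with 1.11 between the nearest, but the wild-type arrays spread over more than 2 log2 units. The log2 fold change came to 2.83 with an SE of 0.68 (95% interval 1.26 to 4.40; limma adjusted p = 0.0999), and 1.44 with the pseudocount. It passed the test after median centring of the arrays (3.05, adjusted p = 0.0441). Probes for these paralogs can share target sequence, so how the signal divides between Hspa1a and Hspa1b is uncertain, and 1 further probe set annotated to both was left out. As with Hspa1a, replicate 2 was the highest of the Ets1-/- arrays, which held for 7 of the 8 members.

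Hsph1, the HSP110 exchange factor that works on HSP70, gave 8.33, 7.45 and 7.17 in wild type and 8.61, 8.91 and 8.49 in Ets1-/-. Wild-type replicate 1 came within 0.16 of the lowest Ets1-/- array. The log2 fold change came to 1.02 with an SE of 0.33 (95% interval 0.25 to 1.79; limma adjusted p = 0.236), and it lay between 0.78 and 1.36 over 15 alternative settings. This gene is bright on every array, and the pseudocount left its difference at 0.96.

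Dnajb1, the J-domain protein that starts the HSP70 cycle and is itself a standard heat shock gene, was not higher. It read 7.64, 7.32 and 7.69 in wild type and 6.84, 7.56 and 7.71 in Ets1-/-, and the groups overlapped. The log2 fold change was -0.18 ± 0.29 (SE; limma adjusted p = 0.804), with a 95% interval of -0.86 to 0.50. Its sign is not settled: it was 0.03 after median centring of the arrays and 0.08 without Ets1-/- replicate 1. That array had both the lowest Dnajb1 value and the lowest overall median.

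Hsp90aa1 is the inducible cytosolic HSP90. It read 9.18, 8.82 and 9.04 in wild type and 9.11, 9.31 and 9.11 in Ets1-/-. The ranges overlapped and the log2 fold change came to 0.16 with an SE of 0.22 (95% interval -0.35 to 0.68; limma adjusted p = 0.760). A rise of the size of Hspa1a or of Hsph1 (1.02) lies outside this interval.

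Hspa8 encodes HSC70, the HSP70 of unstressed cells. The brightest of its 4 probe sets read 11.34, 11.27 and 11.31 in wild type and 11.43, 11.50 and 11.38 in Ets1-/-. The arrays did not overlap, but the gap was 0.05 and the log2 fold change 0.13 ± 0.20 (SE; 95% interval -0.34 to 0.61; limma adjusted p = 0.791). The other 3 probe sets had log2 fold changes of 0.13, 0.23 and 0.25, none called, and the last of them overlapped between the groups. All 4 probe sets thus gave differences of a similar, small size, and a 5th, which also named Snord14e, was left out.

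The mitochondrial pair differed in how clearly the groups separated. Hspe1, the HSP10 lid, read 9.16, 8.97 and 9.07 in wild type and 9.65, 9.80 and 9.62 in Ets1-/-, a gap of 0.46 between the nearest arrays. Its log2 fold change came to 0.63 with an SE of 0.21 (95% interval 0.14 to 1.11; limma adjusted p = 0.246), a 1.55-fold difference. Hspd1, the HSP60 chamber, read 9.22, 9.11 and 8.89 against 9.29, 9.50 and 9.39, with a gap of 0.07 and a log2 fold change of 0.32 ± 0.22 (SE; 95% interval -0.19 to 0.82; limma adjusted p = 0.577). Whether the 2 subunits differed from each other was not tested. Hspe1 passed the test with the pseudocount of 16 (0.61, limma adjusted p = 0.0279), where 2 of the 8 members, Hspa1a and Hspe1, were called and 2.18% of all genes were called higher.

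**Figure D3:**
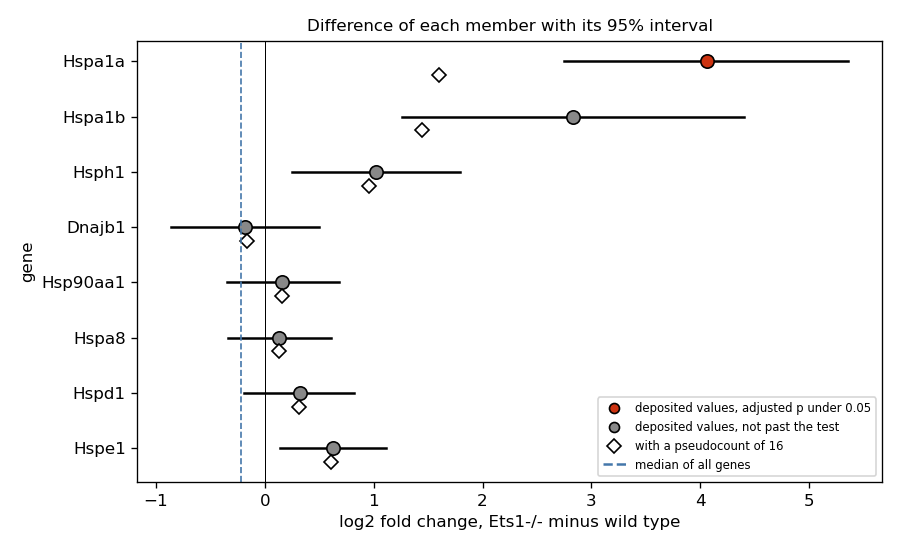
Log2 fold change (Ets1-/- minus wild type, x axis) of the 8 measured members, 1 per row, with limma's 95% interval as a bar; red marks the gene past the test, open diamonds the same difference with a pseudocount of 16, and the dashed line the median of all genes (-0.22). The diamonds of Hspa1a and Hspa1b lie far to the left of their circles (1.60 and 1.44 against 4.06 and 2.83), whereas those of the brighter members nearly coincide with theirs.

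Set relative to each gene's wild-type mean, the 5 inducible members averaged 0.08, 0.06 and -0.15 on the wild-type arrays and 1.14, 2.15 and 1.45 on the Ets1-/- arrays. The 3 constitutive members averaged 0.09, -0.03 and -0.06 in wild type and 0.31, 0.45 and 0.32 in Ets1-/-. The inducible minus constitutive difference was therefore 0.83, 1.69 and 1.13 in Ets1-/-, or 1.22 ± 0.44 (SD, n = 3), where the wild-type arrays had an SD of 0.09. This contrast describes the members chosen and carries no test. It rests on Hspa1a and Hspa1b. With the pseudocount, which damps these genes but does not remove them, it was 0.45. The other inducible members, Hsph1, Dnajb1 and Hsp90aa1, had log2 fold changes of 1.02, -0.18 and 0.16. The constitutive Hspa8, Hspd1 and Hspe1 had 0.13, 0.32 and 0.63. Apart from Hspa1a and Hspa1b, the inducible members were thus not clearly above the constitutive ones.

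Few genes of the wider chaperone network passed the test. Across 8 lists of chaperones, co-chaperones and heat shock factors, 120 of 131 genes were measured, members included, and 2 were called higher and 0 lower, or 1.67% against 1.86% of all genes. The second of them, after Hspa1a, was Fkbp5, a co-chaperone of HSP90 on steroid receptors and a standard glucocorticoid-induced gene. Fkbp5 read 6.89, 7.05 and 6.29 in wild type and 8.44, 8.23 and 8.10 in Ets1-/-, with a log2 fold change of 1.51 ± 0.27 (SE; limma adjusted p = 0.0369). Whichever array was left out, its log2 fold change stayed between 1.29 and 1.66 while the call was lost (adjusted p from 0.0705 to 0.128), as it was with all probe sets tested together (adjusted p = 0.0942). At looser levels more genes of these lists were higher than lower. At an unadjusted limma p under 0.05, 13 of the 120 (10.8%) were higher and 0 lower, beside 4.54% of all genes higher. For 23 (19.2%, beside 5.76% of all genes) all Ets1-/- arrays lay above all wild-type arrays, and for 4 they lay below. The median log2 fold change was 0.04. These counts include the 8 members and carry no test of the list. The shares of all genes that were lower at these levels were not counted.

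Cytosolic HSP70 genes and their exchange factors had 1 of 19 called higher and 0 lower, with a median of 0.03 over the list. The range ran from Hspa1a down to Bag4, at -0.68 (limma adjusted p = 0.528). Bag4 read 4.01 on Ets1-/- replicate 1, the array with the lowest overall median, and 5.05 and 5.42 on replicates 2 and 3. Hspa4l, another HSP110 relative, and Bag3, a partner of HSP70 that heat shock also raises, are named after their values were seen. Hspa4l averaged 7.49 ± 0.20 on the wild-type and 8.48 ± 0.16 on the Ets1-/- arrays (SD, n = 3; log2 fold change 0.99, limma adjusted p = 0.0890). Bag3 was at 4.65 ± 0.26 and 5.42 ± 0.34 (log2 fold change 0.77, limma adjusted p = 0.272). Both had groups that did not overlap, with Ets1-/- above wild type as for 5.76% of all genes, and neither passed the main test. Hspa4l did pass among genes above the median signal, after quantile normalization, median centring or cyclic loess, with the pseudocount and with the intensity trend. It did not pass with any 1 array left out, and Bag3 passed in no alternative.

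Of 18 J-domain proteins of the cytosol and nucleus, 0 were called by limma (0 also at an unadjusted p under 0.05), with Dnajb4 highest at 0.37 and Dnajb2 lowest at -0.45. Of 18 genes of the HSP90 group, Fkbp5 alone was called, and the myosin chaperone Unc45a was lowest at -0.29. The 15 mitochondrial chaperones and proteases had 0 called by limma (2 higher at an unadjusted p under 0.05). The iron-sulfur cluster co-chaperone Hscb was highest at 0.97 (adjusted p = 0.298) and the exchange factor Grpel2 lowest at -0.57. The chaperonin TRiC and prefoldin, which fold actin and tubulin, had 0 of 14 called by limma (0 at an unadjusted p under 0.05), between Cct8 at 0.46 and Vbp1 at -0.37. On Ets1-/- replicate 1, the array with the lowest overall median, Dnajb2, Grpel2 and Vbp1 read 2.66, 3.90 and 6.26. On Ets1-/- replicates 2 and 3 they read 3.44 and 3.48, 4.94 and 4.92, and 7.07 and 7.17. Unc45a read 5.31, 5.38 and 5.46 on Ets1-/- replicates 1, 2 and 3.

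Chaperones of the endoplasmic reticulum had the highest median of the 8 lists, 0.35, beside -0.22 over all genes. The median over all genes was -0.02 without Ets1-/- replicate 1. Of the 18 genes 15 were above 0, and the share of all genes above 0 was not counted. None was called by limma, while 5 were higher and 0 lower at an unadjusted p under 0.05, beside 4.54% of all genes higher. Hspa5, the BiP chaperone, averaged 8.14 ± 0.19 on the wild-type and 8.74 ± 0.21 on the Ets1-/- arrays (SD, n = 3; log2 fold change 0.60, limma adjusted p = 0.329). Its partner Hsp90b1 was at 9.70 ± 0.19 and 10.09 ± 0.17 (log2 fold change 0.39, limma adjusted p = 0.526). The extremes were Sdf2l1 at 1.07 and Dnajc3, a J-domain protein of the same compartment, at -0.39.

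The regulators gave no difference past the test. Of 9 heat shock factors and regulators, 0 were called by limma (0 at an unadjusted p under 0.05). Hsf2, a factor that can bind the same repeats as Hsf1, read 6.27, 6.14 and 6.25 in wild type and 5.13, 6.28 and 6.17 in Ets1-/- (log2 fold change -0.36, limma adjusted p = 0.658). Its difference came from Ets1-/- replicate 1. Hsbp1, which binds the trimer domain of heat shock factors, was highest at 0.12 and Hsf5 lowest at -0.50, and Hsf1 had no probe set naming it alone. Hsf5 too was lowest on Ets1-/- replicate 1 (1.84, against 3.07 and 3.15 on replicates 2 and 3). Small heat shock proteins had 0 of 9 called by limma (0 at an unadjusted p under 0.05), from Hspb11 at 0.32 to Hspb6 at -0.58. Of them, 5 lay below the array median on all 3 Ets1-/- arrays, Hspb1 among them, so a difference at the low end would be hard to see.

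**Figure D4:**
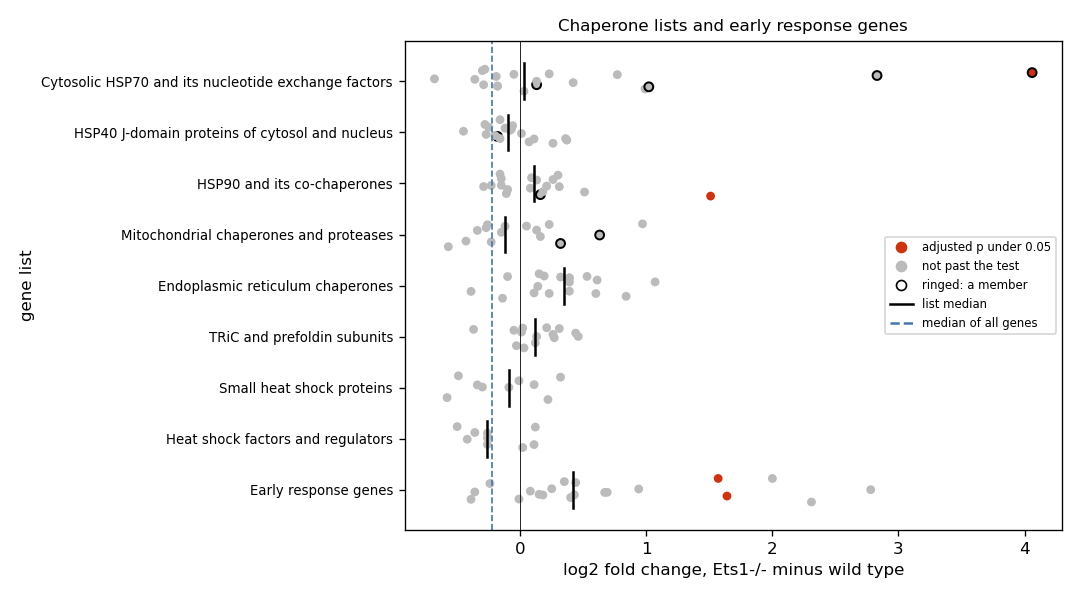
Log2 fold change (Ets1-/- minus wild type, x axis) of every measured gene of 8 chaperone lists and of the early response genes, 1 list per row, with red for adjusted p under 0.05, rings for members and a black line for the list median. Hspa1a and Fkbp5 are the only red points among the chaperones, and the endoplasmic reticulum list has the highest chaperone median (0.35).

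Early response genes, which cells switch on within minutes of a growth signal, had 2 of 20 called higher and 0 lower. Among all genes 1.29% were called higher. The list had a median of 0.42, beside -0.22 over all genes (-0.02 without Ets1-/- replicate 1). Its lowest value was -0.39, for the signalling inhibitor Socs3. Fosb, an AP-1 subunit, rose by 1.57 ± 0.24 (SE; limma adjusted p = 0.0183) and the growth regulator Myc by 1.64 ± 0.32 (adjusted p = 0.0499). With 1 array left out the log2 fold changes stayed between 1.43 and 1.70 for Fosb and between 1.34 and 1.84 for Myc, but calls were lost. Myc passed in 0 of the 6 such fits (adjusted p from 0.0687 to 0.148), and Fosb passed in 2 of them, those lacking the third wild-type or the first Ets1-/- array (0.0371 to 0.0869 over the 6). Fos read 3.19, -0.61 and 5.01 in wild type and 5.30, 5.42 and 5.23 in Ets1-/- (adjusted p = 0.383). Their part in the difference of Hspa1a was not tested.

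Several markers of other cells rose in Ets1-/-, counted by the adjusted limma test that called 1.29% of all genes higher. Of 15 macrophage and monocyte markers 11 rose and 0 fell, and the log2 of their summed linear signal was 9.68 to 9.94 in wild type and 12.03 to 12.45 in Ets1-/-. Of 12 dendritic-cell markers 5 rose and 0 fell (10.42 to 10.65 against 12.14 to 12.23). These 5 were Itgax, H2-Aa, H2-Ab1, H2-Eb1 and Irf8, which B cells or macrophages can express too. In wild type the brightest genes of this list were Cst3 (mean 9.34) and Ccr9 (8.81), which weigh most in that sum. Their log2 fold changes were 0.68 and -0.03, and neither was called. At an unadjusted limma p under 0.05, where 4.54% of all genes were higher, 7 of the 12 were higher and 1 was lower, Xcr1 at -1.15. Zbtb46 was at -0.38, Batf3 at -0.25 and Flt3 at 0.03, and Flt3 and Xcr1 lay below the array median on all Ets1-/- arrays. Of 11 B-cell markers 4 rose and 0 fell (10.52 to 10.73 against 11.25 to 11.78). At the same unadjusted level, 10 of them were higher and 0 lower. Most of the B-cell sum was Ighm, at 10.42, 10.50 and 10.61 in wild type and 11.04, 10.92 and 11.38 in Ets1-/-. Ighm itself was not called (log2 fold change 0.60, limma adjusted p = 0.314). Ms4a1 was highest at 6.14, from a dim wild-type mean of 0.04, and Cr2 lowest at -0.32. Cr2 and Vpreb3 lay below the array median on all Ets1-/- arrays. On Ets1-/- replicates 1, 2 and 3, Hspa1a read 4.22, 6.32 and 5.18 and the macrophage sum was 12.08, 12.03 and 12.45. The order of 3 arrays is too little to relate the 2 quantities. The part of these cells in the chaperone differences was not tested.

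Markers of further cell types had 0 called by limma: 0 of 11 for thymic epithelium, 0 of 5 for erythroid cells and 0 of 10 for neutrophils. At an unadjusted limma p under 0.05, where 4.54% of all genes were higher, there were 1 higher and 1 lower, 0, and 1 lower. Their summed log2 signals were 7.81 to 7.91 against 7.41 to 8.50, 6.15 to 6.66 against 5.39 to 6.12, and 6.95 to 7.29 against 6.46 to 6.89. Foxn1, Cldn3 and Dll4 of the epithelial list, Slc4a1, Epor and Car2 of the erythroid list and 7 neutrophil markers, Elane and Mpo among them, lay below the array median on all Ets1-/- arrays. Of the 9 double-positive markers 1 was called, the pre-TCR alpha chain Ptcra, at 1.50 (limma adjusted p = 0.0282), and their sum was 13.71 to 13.75 against 13.64 to 13.75. For 2 of the 9, Ptcra and Cd4, all Ets1-/- arrays lay above all wild-type arrays, against 5.76% of all genes. For 3 they lay below: Dntt (log2 fold change -0.46), Rag2 (-0.29) and Cd3e (-0.12), none called. The share of all genes lying below was not counted.

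The genes most like the average inducible member were looked for among 10634 other named genes above the median signal, by the root mean square difference over the 6 arrays after each was centred on its mean. The closest was the transcriptional repressor Gfi1b, with a difference of 0.148 log2 units, followed by the lipid kinase Pip5k1b (0.166), the CD30 ligand Tnfsf8 (0.166), the interleukin-6 receptor Il6ra (0.185) and the adhesion molecule Cadm1 (0.196). Gfi1b read 4.27, 4.19 and 4.30 in wild type and 5.29, 6.55 and 5.50 in Ets1-/-. It is highest on replicate 2, as Hspa1a is, but the search used these same 6 arrays, so a shared order follows from the choice. The search has 2 limits. Its filter on the mean over all arrays leaves out genes as dim as Hspa1a and Hspa1b, and it can let a gene in through its Ets1-/- arrays alone. Tnfsf8 and Cadm1 lay below the array median on all 3 wild-type arrays, Gfi1b on 2 and Il6ra on 1. With these 2 left out of the average, a choice made after seeing the data, the 5 closest genes were Nus1, Ube4a, Ppfia1, Egln1 and Pde4dip, with differences of 0.0518 to 0.0882. None of the 5 passed the limma test (log2 fold changes from 0.19 to 0.36; 0 at an unadjusted p under 0.05).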

How the data were processed

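The 6 arrays, Affymetrix and of 1 colour, were grouped by sample title. The authors deposited 1 table of log2 values for 41345 probe sets, made with affy per the submitters' processing notes. No source used here gives how background was corrected, how arrays were normalized, or a genome build. Whole-array differences in the deposited log2 values therefore pass into the fold changes, and the number of arrays limits the precision.

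Of the probe sets, 23521 named 1 gene, 1814 several and 16010 none. Gene identifiers of 23328 matched RefSeq (GRCm38.p6, used for names and neighbours). The brightest probe set stood for each of 22180 genes. The linear model (lmFit, then eBayes) of limma 3.58.1 under R 4.3.3 had genotype as its only term and was tested two-sided, with Benjamini-Hochberg adjustment over all genes and a threshold of 0.05. SE is limma's moderated error. A two-sided exact permutation test was run per member. The fit was tested on simulated data. Python 3.11.15, pandas 2.3.3, scipy 1.17.1 and matplotlib 3.10.9 were used otherwise.

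The members and gene lists were chosen with earlier results of these data known. Named were all members, up to 4 called genes and the extremes of each list, Hsf2, Hspa5, Hsp90b1, Cd4 and Cd8a, and the 5 genes most like the inducible members; Hsf1 was on that list but not measured. Clone, Riken and Gm names were skipped. Alternatives were the mean of a gene's probe sets, all probe sets tested, a filter at the median signal, quantile normalization, median centring, cyclic loess, a pseudocount of 16, an intensity trend with a robust prior, a replicate block, and each array left out in turn.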

Additional observations from a re-analysis of the deposited data

How the results depend on the processing

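Hspa1a stayed called in 13 of 14 alternatives that kept it, with log2 fold changes from 1.60 to 4.57; the exception was the test of all probe sets (adjusted p = 0.0554), and it was not tested among genes above the median signal. Without 1 array its adjusted p was 0.0147 to 0.0433. The number of members called was 0 in those 2 settings and 2 with median centring (Hspa1b added, adjusted p = 0.0441), with the pseudocount and with the intensity trend (Hspe1 added, adjusted p = 0.0279 and 0.000259). It was 1 without any 1 array. Over the chaperone lists, 2 genes were called; this was 0 with all probe sets tested, 4 with median centring, 5 with the pseudocount, 10 with the intensity trend (9 higher, 1 lower) and 1 without any 1 array. Over all genes, 413 were called, 798, 745 and 777 with quantile normalization, median centring and cyclic loess, 907 with the pseudocount, 1172 with the intensity trend, and 190 to 379 without 1 array. The pseudocount calls were 484 higher and 423 lower. Scaling moved the median log2 fold change of all genes from -0.22 to -0.05 (quantile), -0.01 (centring) and 0.00 (loess). Leaving out Ets1-/- replicate 1 moved it to -0.02, and leaving out Ets1-/- replicate 2 moved it to -0.33.

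The inducible minus constitutive difference of 1.22 was 1.32 with quantile normalization, 1.38 with cyclic loess, 0.45 with the pseudocount, 1.80 for Hspa1a, Hspa1b, Hsph1 and Dnajb1 against Hspa8, and 0.98 to 1.41 without 1 array. Dnajb1 turned from -0.18 to 0.03 with median centring and to 0.08 without Ets1-/- replicate 1 (-0.35 to 0.08 without 1 array). The other 7 members kept their direction in every alternative run. The cause of these shifts was not tested.

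Same-numbered arrays of the 2 genotypes did not deviate together (correlations across genes of -0.072, -0.008 and -0.048), so the numbers were not taken as pairs. With the replicate block 2 members were called, Hspa1a and Hspa1b (adjusted p = 0.0215). These were also the 2 genes called in the chaperone lists, since Fkbp5 lost its call (adjusted p = 0.0645), and 311 of all genes were called. Low signal limits Hspa1a and Hspa1b, whose wild-type values each lie below the median of their own array.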
